A study of Mus musculus with 6 samples.

Results

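The genes described here load peptides onto major histocompatibility complex (MHC) class I molecules: the heavy chain genes H2-K1 and H2-D1, the light chain gene B2m, the peptide loading genes Tap1, Tap2 and Tapbp, the immunoproteasome genes Psmb8, Psmb9 and Psmb10, and their transcriptional activator Nlrc5. They were taken by gene symbol from the platform annotation, and where a gene had several probe sets the brightest by its mean over the 6 arrays stood for it. Of the 10 listed genes 9 were measured, out of 22180 genes with a probe set of their own. The symbol H2-D1 stood only on a probe set that also carries H2-Q2, so no value is given for it. H2-K1 was selected on its higher signal with CREB-H-ΔTC on these same arrays. Its difference is therefore a description. The other members were listed for their role, but with results of these same arrays already known.

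The livers came from mice that lack CREB-H, with the Jackson Laboratory allele Creb3l3tm1.1Sad/J of the gene Creb3l3, given as 8 weeks old and fed a normal diet. All received a liver-targeting adeno-associated virus (AAV) by intraperitoneal injection. In 3 mice the virus carried CREB-H-ΔTC, the active form of this transcription factor of the endoplasmic reticulum membrane, and in 3 control mice it carried green fluorescent protein (GFP). Tissue was taken 2 weeks later, and total RNA of each liver was read on 1 array. Both groups thus carry the knockout and a viral vector, and they differ in what the vector carried, CREB-H-ΔTC or GFP. What either adds on its own cannot be told apart. The labels name neither the promoter of the vector nor the background strain.

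Class I molecules show fragments of the cell's own proteins to CD8 T cells. The proteasome cuts proteins into peptides, and in cells exposed to interferon gamma its catalytic subunits are replaced by the immunoproteasome subunits. The transporter TAP, made of Tap1 and Tap2, moves the peptides into the endoplasmic reticulum, where tapasin (Tapbp) helps load them onto a heavy chain paired with β2-microglobulin (B2m). NLRC5 switches on most of these genes through a promoter module read by RFX, CREB/ATF and NF-Y proteins. Hepatocytes carry little class I at rest, and sinusoidal and immune cells of the liver carry more.

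Over all arrays the log2 signals ran from 1.42 to 13.9, array medians lay between 4.98 and 5.01, and the standard error (SE) of a log2 difference had a median of 0.142. Precision is limited by the number of arrays. The supplied gene Creb3l3 read 6.55, 5.93 and 6.40 in the GFP livers and 6.73, 7.25 and 7.58 in the CREB-H-ΔTC livers, a difference of 0.89 (SE 0.25, limma adjusted p = 0.647) in the direction of the labels. Kdm5d, Eif2s3y and Uty, genes of the Y chromosome, had a mean signal of 7.83 and 7.67 in replicate 3 of either group against 3.15 to 3.39 on the other 4 arrays. Sex is not stated in the labels, and the median of each gene list is also given for replicates 1 and 2 alone and for replicate 3 alone. The hepatocyte gene Alb, which encodes albumin, read 13.76 to 13.87 on all 6 arrays. In whole liver, more cells of a type and more RNA per cell cannot be told apart.

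With CREB-H-ΔTC all 9 measured members had a higher mean signal than with GFP, by 0.04 to 0.76 on the log2 scale with a median of 0.37. Without H2-K1, which was picked for its rise, it was 8 of 8 with a median of 0.35. Over all 41345 probe sets the median difference was -0.015, and 46.3% had a difference above 0. The higher means were largest for Psmb9, H2-K1, Tap1 and Psmb10, intermediate for Psmb8, Tapbp and B2m, and smallest for Nlrc5 and Tap2. None of the 8 members other than H2-K1 passed limma's test after Benjamini-Hochberg adjustment over all probe sets (adjusted p = 0.613 to 0.983), and 3 of them (Psmb9, Tapbp and Tap1) had an unadjusted p below 0.05, as had 6.89% of all probe sets. Of all probe sets 2 passed, which is 0.00484%. The groups did not overlap in 4 of these 8 members (Psmb9, Tapbp, B2m and Psmb8). The share of all probe sets that stood higher without overlap was 5.23%. The members were proposed with this contrast known, so nothing is read from their share.

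**Figure D1:**
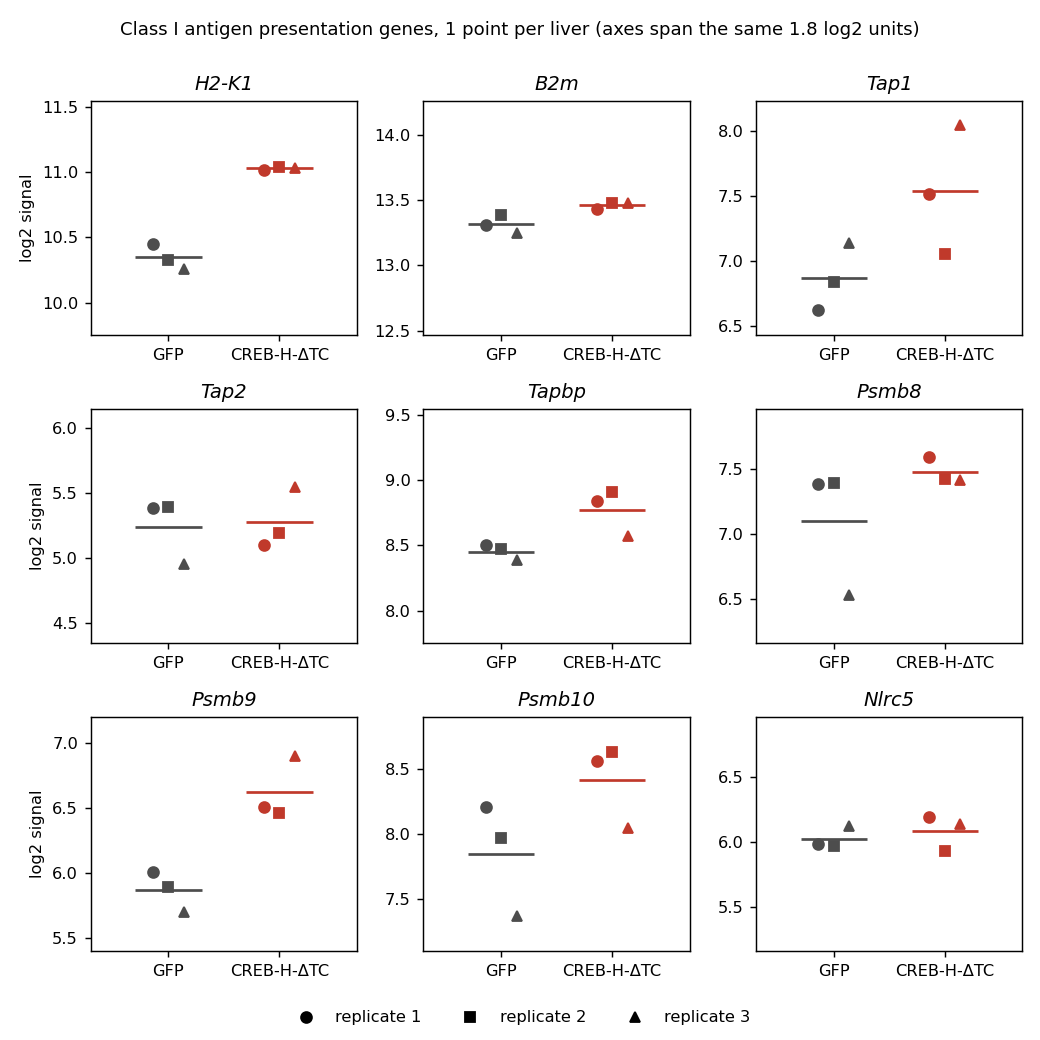
Log2 signal (vertical axis) of the 9 measured class I presentation genes in each liver, with 1 point per array, the marker giving the replicate and a line at the group mean. H2-K1 shows a narrow cluster at 11.02 to 11.04 with CREB-H-ΔTC above 10.26 to 10.45 with GFP, while Tap2 and Nlrc5 overlap between the groups.

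The heavy chain gene H2-K1 (probe set 17343710, Entrez 14972) encodes the classical class I molecule H-2K. Its log2 signal was 10.45, 10.33 and 10.26 in the GFP livers and 11.02, 11.04 and 11.03 in the CREB-H-ΔTC livers. The CREB-H-ΔTC livers lay within 0.02 of each other and 0.57 above the highest GFP liver. The means were 10.35 ± 0.09 and 11.03 ± 0.01 (SD, n = 3 per group), a difference of 0.68 or 1.60-fold, above that of 99.0% of all probe sets. These are the values for which H2-K1 was picked, and no test is given. The difference was 0.64 over replicates 1 and 2, 0.76 for replicate 3, and between 0.64 and 0.73 with any 1 array left out. Class I heavy chains are close relatives of one another, and whether the probes also read other heavy chains was not analysed here.

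The light chain gene B2m (probe set 17375373, Entrez 12010) encodes the subunit that every class I heavy chain needs to reach the cell surface. It read 13.31, 13.39 and 13.25 with GFP and 13.43, 13.48 and 13.48 with CREB-H-ΔTC. The groups were 0.04 apart at their nearest arrays. The difference was 0.15 (SE 0.10, 95% interval -0.08 to 0.37), which did not pass limma's test (adjusted p = 0.833). B2m was brighter than 99.9% of probe sets, close to the highest values on the arrays.

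The start regions of the heavy and light chain genes carry letters of the class I promoter module at a shared spacing, and are printed here for that reason. RefSeq promoter sequences of build GRCm38.p6 (C57BL/6J) were available for 8 of the 10 members, and the 250 bases before each start were searched on both strands. The stretches below run 5′ to 3′ on the gene's strand. Capitals mark GGGATTCCC, letters of the NF-κB-type enhancer A (H2-K1 and H2-D1), then TTTCNNTT, letters of the interferon response element (in B2m on the opposite strand), then TGACG, the half-site of CREB/ATF proteins, and ATTGG, which is CCAAT on the other strand and is read by NF-Y. H2-K1 is chr17:34000354-34000462 on the minus strand, H2-D1 is chr17:35262919-35263027 on the plus strand and B2m is chr2:122147545-122147643 on the plus strand.
H2-K1: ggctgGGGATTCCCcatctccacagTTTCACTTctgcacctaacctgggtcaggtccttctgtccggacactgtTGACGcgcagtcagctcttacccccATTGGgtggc
H2-D1: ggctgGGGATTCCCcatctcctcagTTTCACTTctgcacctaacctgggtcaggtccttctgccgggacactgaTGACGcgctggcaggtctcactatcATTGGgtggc
B2m: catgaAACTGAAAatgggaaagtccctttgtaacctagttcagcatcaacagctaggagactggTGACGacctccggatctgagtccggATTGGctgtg

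The H2-K1 and H2-D1 stretches were identical at 98 of 109 bases. The letters GGGATTCCC were found in 95 of 27025 genes of the promoter table (0.352%), among them H2-K1 and H2-D1 but none of the other 6 members with a promoter sequence. Only these exact letters were searched, so other forms of an NF-κB site, in B2m or elsewhere, were not counted. In all 3 genes printed above, TGACG and ATTGG were separated by 20 bases. This spacing was seen in the members first and then counted. It was present in 26 genes of the table (0.0962%), the 3 members and the class I heavy chain gene H2-M3 included. With no condition on spacing, TGACG was in 19.8% of genes and in 5 of the 8 members, ATTGG in 37.5% and in 6, and TTTCNNTT in 23.9% and in 3. The full palindrome TGACGTCA was in 1.77% of genes and in none of the 8 members. Letters that match are a description of these windows, not a measured binding site.

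The immunoproteasome genes Psmb8, Psmb9 and Psmb10 encode the inducible catalytic subunits. Psmb9 (probe set 17343789, Entrez 16912) read 6.01, 5.89 and 5.70 with GFP and 6.51, 6.46 and 6.90 with CREB-H-ΔTC. All CREB-H-ΔTC livers were above all GFP livers, by 0.45 at the nearest arrays. The difference was 0.76 or 1.69-fold (SE 0.16, 95% interval 0.39 to 1.13, limma adjusted p = 0.613). It was 0.54 over replicates 1 and 2 and 1.21 for replicate 3.

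Psmb10 (probe set 17512554, Entrez 19171) read 8.21, 7.97 and 7.37 with GFP and 8.56, 8.63 and 8.05 with CREB-H-ΔTC. Here CREB-H-ΔTC replicate 3 lay within the range of the GFP livers. The difference was 0.56 (SE 0.25, limma adjusted p = 0.747), and 0.33 without GFP replicate 3. Psmb8 (probe set 17336446, Entrez 16913) read 7.38, 7.39 and 6.53 with GFP and 7.59, 7.42 and 7.41 with CREB-H-ΔTC. The groups were separated by 0.02, and GFP replicate 3 was far below the other 5 arrays. The difference of Psmb8 was 0.37 (SE 0.24, limma adjusted p = 0.827), and 0.09 without that array.

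The constitutive catalytic subunits that the immunoproteasome replaces did not share the higher means. Psmb5, Psmb6 and Psmb7 differed by -0.01 (SE 0.11), -0.16 (SE 0.12) and -0.04 (SE 0.10), and Psmb5 was 0.01 after centring each array on its median. None of the 3 passed limma's test (adjusted p = 0.862 to 0.995). The mean signal of the 3 inducible genes was 7.20, 7.08 and 6.53 in the GFP livers and 7.55, 7.50 and 7.46 in the CREB-H-ΔTC livers. Over replicates 1 and 2 the median difference of the inducible genes was 0.51, and for replicate 3 it was 0.88. The mean signal of the 3 constitutive genes was 9.03, 8.93 and 9.12 with GFP and 8.92, 8.98 and 8.97 with CREB-H-ΔTC. Their median difference was -0.04, or -0.02 over replicates 1 and 2 and -0.08 for replicate 3. The difference between the sets was not tested. Other subunits of the proteasome core had a median difference of -0.06, with 1 of 10 measured higher (-0.09 over replicates 1 and 2 and -0.0042 for replicate 3, where 5 of 10 were higher). Among them Psmb4 differed by -0.14 (SE 0.11), Psma1 by -0.12 (SE 0.14) and Psma5 by -0.21 (SE 0.23).

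Genes of proteasome activation and assembly had a median difference of -0.05, with 2 of 7 higher (-0.05 over replicates 1 and 2 and -0.13 for replicate 3). The median was 0.03 without GFP replicate 3. Psme1 and Psme2, the PA28 activator subunits that interferon gamma induces together with the immunoproteasome, differed by -0.03 (SE 0.11) and 0.06 (SE 0.17). The activator Psme3 differed by -0.12 (SE 0.10). The assembly chaperones Psmg1 and Psmg2 differed by -0.22 (SE 0.12) and -0.22 (SE 0.16), and the groups did not overlap in Psmg1. Non-overlap in that direction held for 7.10% of all probe sets. None of these genes passed limma's test (adjusted p = 0.800 to 0.979 for those named).

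Tap1 (probe set 17336432, Entrez 21354), a subunit of the peptide transporter, read 6.62, 6.84 and 7.14 with GFP and 7.51, 7.05 and 8.04 with CREB-H-ΔTC. CREB-H-ΔTC replicate 2 lay below GFP replicate 3, so the groups overlapped. The difference was 0.67 or 1.59-fold (SE 0.26, 95% interval 0.04 to 1.30, limma adjusted p = 0.712), and 0.42 without CREB-H-ΔTC replicate 3. Its partner Tap2 (probe set 17336458, Entrez 21355) read 5.38, 5.39 and 4.95 with GFP and 5.10, 5.19 and 5.54 with CREB-H-ΔTC. The difference of Tap2 was 0.04 (SE 0.18, 95% interval -0.38 to 0.46, limma adjusted p = 0.983). It was -0.24 over replicates 1 and 2 and 0.60 for replicate 3. Tap2 was brighter than 55.1% of probe sets, close to the median of all probe sets.

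Tapbp encodes tapasin, which bridges TAP and the heavy chain. Its probe set 17336228 (Entrez 21356) read 8.50, 8.47 and 8.39 with GFP and 8.84, 8.91 and 8.57 with CREB-H-ΔTC. The nearest arrays of the groups were 0.07 apart. The difference was 0.32 (SE 0.12, 95% interval 0.03 to 0.61, limma adjusted p = 0.704). A further, dimmer probe set of the gene, 17343675, read 5.44 to 5.59 with GFP and 5.47 to 5.59 with CREB-H-ΔTC, a difference of 0.02 (SE 0.10). The probe sets of Tapbp therefore disagree in size.

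Along chromosome 17 the RefSeq annotation orders Psmb9, Tap1, Psmb8 and Tap2 next to each other, with no other protein-coding gene between them. In that order their differences were 0.76, 0.67, 0.37 and 0.04. Psmb9 and Tap1 are read in opposite directions from starts separated by 225 bases, so they share a single upstream region, and it is printed because both genes had among the highest differences of the set. It is chr17:34187331-34187555 of GRCm38.p6, given on the strand of Tap1, with CCAAT near the start of Psmb9 and TGACG toward Tap1 in capitals.
Psmb9 to Tap1: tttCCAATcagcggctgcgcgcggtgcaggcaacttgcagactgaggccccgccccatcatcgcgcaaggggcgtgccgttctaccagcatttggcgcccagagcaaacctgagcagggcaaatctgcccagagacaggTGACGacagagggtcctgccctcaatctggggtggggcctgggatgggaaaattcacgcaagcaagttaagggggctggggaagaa
TTTCNNTT was not found in the upstream windows of Psmb9 and Tap1. The gamma-activated letters TTCNNNGAA, present in 8.13% of genes, were found in 1 of the 8 members, Psmb8.

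Nlrc5 (probe set 17504023, Entrez 434341) encodes the class I transactivator. It read 5.98, 5.97 and 6.12 with GFP and 6.19, 5.93 and 6.14 with CREB-H-ΔTC. The groups overlapped, with a difference of 0.06 (SE 0.11, 95% interval -0.21 to 0.33, limma adjusted p = 0.954). The other regulators of class I transcription had a median difference of 0.19, with 9 of 13 measured higher and none past limma's test. The median was 0.15 over replicates 1 and 2, 0.14 for replicate 3 and 0.07 without GFP replicate 1. Irf1, an interferon regulatory factor that binds the interferon response element of class I genes, read 6.27, 6.76 and 6.78 with GFP and 7.13, 6.95 and 7.16 with CREB-H-ΔTC. Its groups did not overlap, and the difference was 0.48 (SE 0.16, limma adjusted p = 0.686). Irf2, of the same family, differed by 0.39 (SE 0.11, limma adjusted p = 0.647), also without overlap. These were 2 of the 13 (15.4%), and 5.23% of all probe sets stood higher without overlap. Rela, 1 of the 4 lower regulators, stood lower without overlap, as did 7.10% of all probe sets. Its difference was -0.17 (SE 0.09, limma adjusted p = 0.792). Rfx5, the DNA-binding subunit of the RFX complex, differed by 0.53 (SE 0.25, limma adjusted p = 0.766), and its groups overlapped. Its difference was 0.26 without GFP replicate 1.

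**Figure D2:**
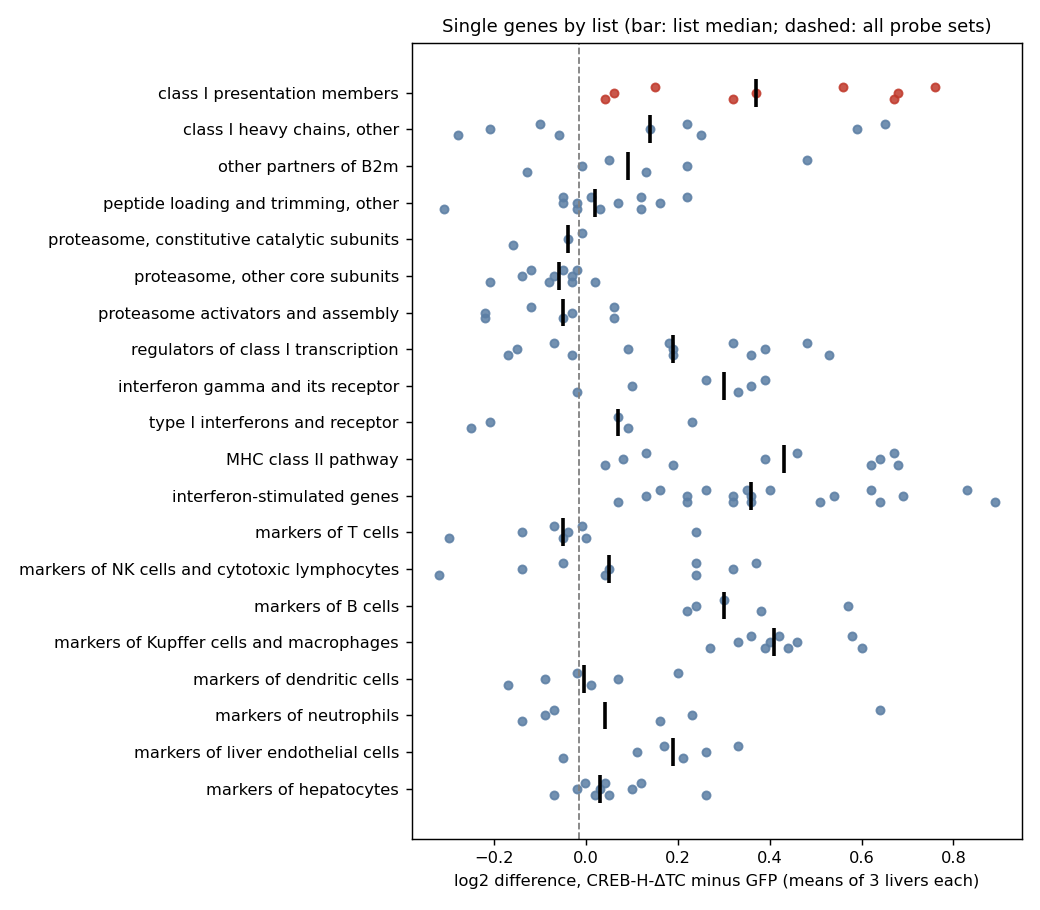
Log2 difference between the group means (horizontal axis, CREB-H-ΔTC minus GFP) for each measured gene of the class I members in red and of 19 surrounding lists in blue, with a bar at each list's median and a dashed line at the median of all probe sets. Members, MHC class II, interferon-stimulated and macrophage marker genes lie mostly to the right, while proteasome core subunits and T cell markers lie around the dashed line.

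Other class I heavy chains lay on both sides of 0. Of 9 measured, 5 were higher and 4 lower, with a median difference of 0.14, or -0.02 over replicates 1 and 2 and 0.10 for replicate 3. H2-T23, which encodes the non-classical molecule Qa-1, read 7.69, 7.88 and 7.59 with GFP and 8.47, 8.32 and 8.13 with CREB-H-ΔTC. H2-Q4 read 5.92, 6.43 and 6.18 with GFP and 6.90, 6.78 and 6.79 with CREB-H-ΔTC. Both lay without overlap between the groups, with differences of 0.59 (SE 0.13) for H2-T23 and 0.65 (SE 0.15) for H2-Q4 (limma adjusted p = 0.613 each). H2-T24 differed by 0.25 (SE 0.15). H2-Q10, which encodes a class I molecule secreted by the liver, differed in the other direction by -0.21 (SE 0.14, limma adjusted p = 0.843). Its arrays read 10.90, 10.44 and 10.71 with GFP and 10.57, 10.47 and 10.37 with CREB-H-ΔTC, which overlap.

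Chaperones and peptidases that serve class I loading beside other duties had a median difference of 0.02, with 7 of 12 measured higher. Over replicates 1 and 2 the median was 0.09, with 10 of 12 higher, and for replicate 3 it was -0.13, with 3 of 12 higher. It was -0.03 without GFP replicate 1 and without CREB-H-ΔTC replicate 2. The loading complex members Calr and Pdia3 differed by 0.03 (SE 0.14) and 0.01 (SE 0.13), and the trimming peptidase Erap1 by 0.12 (SE 0.17). Tapbpl, a relative of tapasin, differed by 0.12 (SE 0.10), the peptidase Thop1 by 0.22 (SE 0.09) and the chaperone Hspa5 by -0.31 (SE 0.19). None of these passed limma's test (adjusted p = 0.723 to 0.995).

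Genes of interferon signalling were examined because interferons are the classical inducers of the class I pathway. The list of interferon gamma, its receptor and signalling genes had a median difference of 0.30, with 5 of 6 higher (0.30 over replicates 1 and 2 and 0.17 for replicate 3). The median was 0.20 without GFP replicate 1. Ifng itself was dim, at 3.71, 3.70 and 3.60 with GFP and 4.08, 3.81 and 4.30 with CREB-H-ΔTC, below the median signal of every array. Its difference was 0.39 (SE 0.14, limma adjusted p = 0.693). The kinase Jak2 differed by 0.36 (SE 0.13) and the receptor subunit Ifngr1 by 0.33 (SE 0.15). Type I interferons and their receptor had a median of 0.07, with 3 of 5 higher. The median was 0.23 over replicates 1 and 2, and for replicate 3 it was -0.26, with 1 of 5 higher. It was -0.11, with 1 of 5 higher, without GFP replicate 1 and 0.25 without GFP replicate 3. Ifnb1 was dimmer than Ifng, at 3.37, 3.35 and 3.59 with GFP and 3.34, 3.15 and 3.07 with CREB-H-ΔTC. It differed by -0.25 (SE 0.12), Ifna4 by -0.21 (SE 0.13) and the receptor subunit Ifnar2 by 0.23 (SE 0.12).

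Interferon-stimulated genes were higher in 19 of 19 measured, with a median difference of 0.36 and none past limma's test. Over replicates 1 and 2 alone 18 of 19 were higher, with a median of 0.30, and for replicate 3 alone 14 of 19, with a median of 0.34. The antiviral genes Ifit1 and Rsad2 differed by 0.51 (SE 0.12) and 0.26 (SE 0.11), and the guanylate-binding protein gene Gbp7 by 0.83 (SE 0.31). For Gbp7 the difference was 0.41 over replicates 1 and 2 and 1.66 for replicate 3. The median of the class I members was 0.37 with H2-K1 and 0.35 without it, and whether they differ from this list was not tested.

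Genes of the MHC class II pathway, which presents proteins taken up from outside, were higher in 10 of 10 measured, with a median of 0.43. H2-Aa read 7.22, 7.98 and 7.35 with GFP and 8.20, 8.26 and 8.13 with CREB-H-ΔTC, a difference of 0.68 (SE 0.20). H2-Eb1 differed by 0.67 (SE 0.17) and H2-Ob by 0.39 (SE 0.17). Ciita, the class II transactivator and a relative of Nlrc5, differed by 0.08 (SE 0.13). None passed limma's test (adjusted p = 0.623 to 0.938 for those named). Over replicates 1 and 2 all 10 class II genes were higher, with a median of 0.41, and for replicate 3 alone 6 of 10, with a median of 0.14. Without GFP replicate 3 the median was 0.28.

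Several lists of markers of other liver cells were higher alongside the class I members. All 10 Kupffer cell and macrophage markers were higher with CREB-H-ΔTC, with a median of 0.41 (0.44 over replicates 1 and 2 and 0.31 for replicate 3). With 1 array left out the median was 0.20 (9 of 10 higher) without GFP replicate 3, 0.25 without CREB-H-ΔTC replicate 2, 0.67 without CREB-H-ΔTC replicate 3 and 0.69 without GFP replicate 2. Their mean signal was 7.87 to 8.92 in the GFP livers and 8.31 to 9.15 in the CREB-H-ΔTC livers, so that the groups overlapped. Vsig4 differed by 0.60 (SE 0.27), Cd68 by 0.46 (SE 0.19) and C1qb by 0.44 (SE 0.28), none past limma's test (adjusted p = 0.725 to 0.827). GFP replicate 2 was above CREB-H-ΔTC replicate 3 in 9 of the 10 markers, with mean signals of 8.92 and 8.31. On the same arrays, in that order, H2-K1, which was picked for its rise, read 10.33 and 11.03, and Psmb9 5.89 and 6.90. Psmb8 read 7.39 and 7.41, Psmb10 7.97 and 8.05, and Tapbp 8.47 and 8.57. This pair is 1 liver of each group. Only CREB-H-ΔTC replicate 3 of the pair carried Y-linked signal (mean 7.67, against 3.16 in GFP replicate 2). Nothing is therefore read from the pair. The part of macrophages in the members' differences was not tested.

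B cell markers were also higher, in 5 of 5 measured with a median of 0.30, their mean signal being 4.81 to 5.04 with GFP and 5.06 to 5.37 with CREB-H-ΔTC. The median of the B cell markers was 0.57 over replicates 1 and 2, and for replicate 3 it was 0.0012, with 3 of 5 higher. Cd79a differed by 0.57 (SE 0.18), Ms4a1 by 0.38 (SE 0.15) and Pax5 by 0.22 (SE 0.12). T cell markers had a median of -0.05 (0.02 over replicates 1 and 2 and -0.11 for replicate 3), with 2 of 8 higher and mean signals of 4.94 to 5.28 with GFP and 4.89 to 5.09 with CREB-H-ΔTC. Cd8a, the co-receptor that reads class I, read 4.36 to 4.59 with GFP and 4.29 to 4.56 with CREB-H-ΔTC, below the median signal of every array. Cd3g, Cd3e and Cd4 differed by -0.30 (SE 0.24), -0.14 (SE 0.15) and 0.24 (SE 0.25). Markers of natural killer and cytotoxic cells had a median of 0.05 (0.04 over replicates 1 and 2 and 0.16 for replicate 3), with 6 of 9 higher and mean signals of 4.43 to 4.77 and 4.57 to 4.74. Ncr1 differed by 0.32 (SE 0.17), Klrk1 by 0.24 (SE 0.12) and Klrb1c by -0.32 (SE 0.22).

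Dendritic cell markers were higher in 3 of 6 (median -0.0043, or -0.03 over replicates 1 and 2 and 0.0011 for replicate 3), with mean signals of 5.01 ± 0.05 with GFP and 5.01 ± 0.01 with CREB-H-ΔTC (SD, n = 3). Siglech differed by -0.17 (SE 0.10), Ccr7 by -0.09 (SE 0.16) and Xcr1 by 0.20 (SE 0.16). Neutrophil markers were higher in 3 of 6 (median 0.04, or 0.11 over replicates 1 and 2 and 0.17 for replicate 3), with mean signals of 4.07 to 4.22 and 4.11 to 4.33. Retnlg, at 3.16 to 3.53 with GFP and 3.81 to 4.04 with CREB-H-ΔTC, differed by 0.64 (SE 0.13), while Cxcr2 and Csf3r differed by 0.23 (SE 0.13) and 0.16 (SE 0.16). The other neutrophil markers S100a8, S100a9 and Ly6g differed by -0.07 (SE 0.16), -0.14 (SE 0.15) and -0.09 (SE 0.17). Endothelial markers were higher in 5 of 6, with a median of 0.19 (0.19 over replicates 1 and 2 and 0.06 for replicate 3) and mean signals of 8.95 to 9.29 and 9.10 to 9.34. Cdh5 differed by 0.26 (SE 0.17), Clec4g by 0.21 (SE 0.12) and Pecam1 by 0.17 (SE 0.16). Hepatocyte markers had a median of 0.03 (-0.01 over replicates 1 and 2 and 0.06 for replicate 3) and mean signals of 12.32 to 12.54 and 12.47 to 12.51. Their part in the members' differences was not tested. Of the 160 measured genes of all lists none passed limma's test, and 16 had an unadjusted p below 0.05, against 6.89% of all probe sets.

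**Figure D3:**
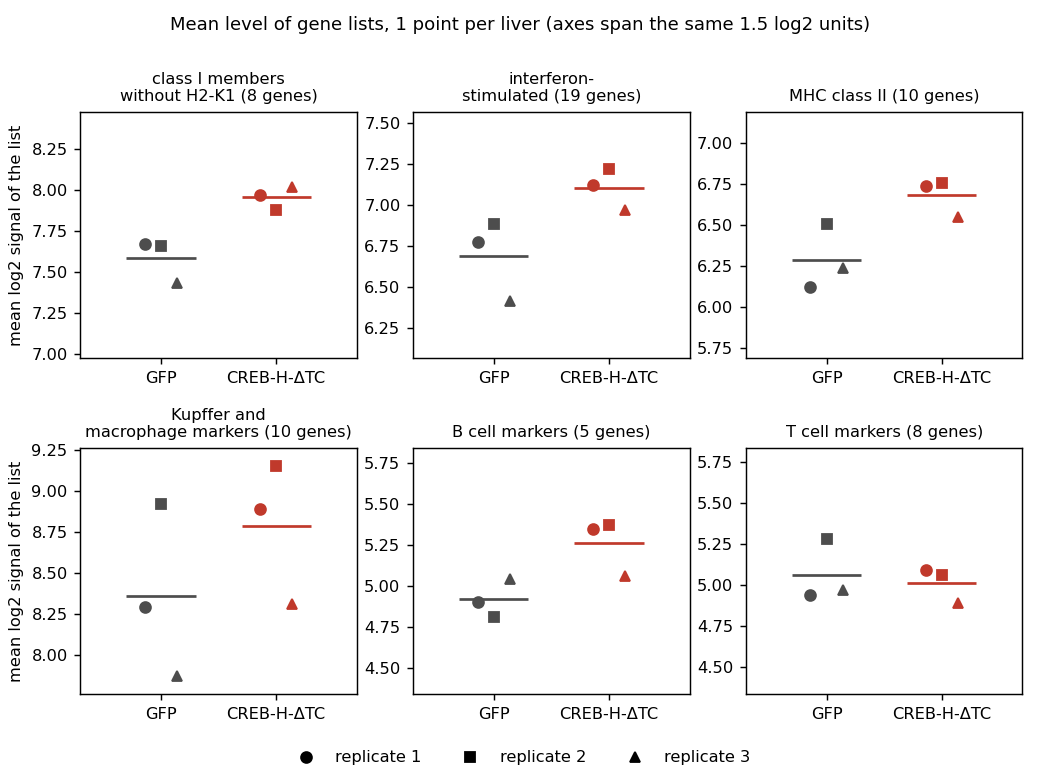
Mean log2 signal (vertical axis) of the 8 class I members without H2-K1 and of 5 gene lists in each liver, with 1 point per array, the marker giving the replicate and a line at the group mean. The class I members lie at 7.43 to 7.67 with GFP and 7.88 to 8.02 with CREB-H-ΔTC. The interferon-stimulated, MHC class II and B cell lists also lie without overlap between the groups, whereas the macrophage and T cell markers overlap.

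Within the GFP group 1 liver stood lowest for most members. GFP replicate 3 was the lowest array of its group for 7 of the 9 members, all but Tap1 and Nlrc5, where it was the highest. CREB-H-ΔTC replicate 3 was the lowest of its group for 3 members and the highest for 4. Both arrays carried Y-linked signal. GFP replicate 3 also held the lowest macrophage markers of its group in 9 of 10 and CREB-H-ΔTC replicate 3 in 10 of 10. Over replicates 1 and 2 alone 8 of 9 members were higher with CREB-H-ΔTC, with a median difference of 0.39 and Tap2 lower. For replicate 3 alone all 9 were higher, with a median of 0.68. Without GFP replicate 3 the median was 0.29, with 8 of 9 higher. Without H2-K1 the median of the other 8 members was 0.26 over replicates 1 and 2 (7 of 8 higher), 0.64 for replicate 3 and 0.20 without GFP replicate 3 (7 of 8 higher), against 0.35 with all arrays.

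**Figure D4:**
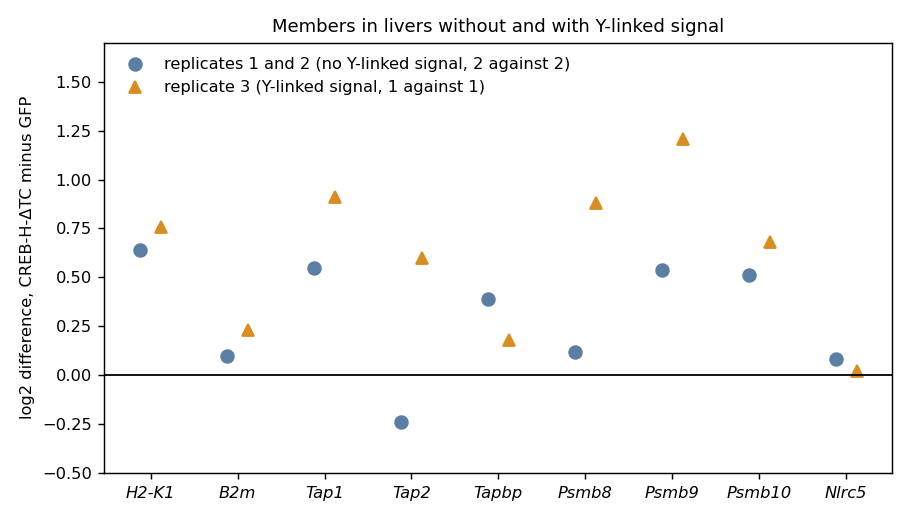
Log2 difference, CREB-H-ΔTC minus GFP (vertical axis), of each member over replicates 1 and 2 (circles, 2 against 2) and for replicate 3, whose arrays hold Y-linked signal (triangles, 1 against 1). H2-K1 (0.64 and 0.76), B2m (0.10 and 0.23) and Nlrc5 (0.08 and 0.02) lie close together in both, and Psmb8 (0.12 and 0.88) and Tap2 (-0.24 and 0.60) lie far apart.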

How the data were processed

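The labels list 3 biological replicates per group. The authors deposited 1 log2 signal for each probe set on each array, and the submitters' processing notes name the Transcriptome Analysis Console. How probes were summarised, normalized or filtered is not stated in the labels. Background and detection were not examined, so a dim probe set may show less than its full difference. Gene names came from the platform annotation: 23521 probe sets had 1 symbol, 1814 had several and 16010 were not listed, and only the first kind was named. The comparison was fitted in limma 3.58.1 under R 4.3.3 (lmFit, eBayes, only group as a term) on all 41345 probe sets, two-sided, with Benjamini-Hochberg adjustment and a threshold of 0.05. An exact permutation test of 3 against 3 arrays cannot go below 0.1. The model was tested on simulated data.

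The members and lists were chosen with earlier results of these data known. Of 181 genes in the 19 lists 160 were measured. Genes named were the members, fixed genes of the pathway, and up to 3 genes per list with the lowest unadjusted p. Rela, H2-M3, S100a8, S100a9 and Ly6g are given besides these. The fixed gene Cd74 had no single-symbol probe set and is not reported. Alternatives were quantile normalization, median centring, filters on dim probe sets, limma-trend, array weights, a block on the replicate number, a term for Y-linked signal (mean above 5), its arrays apart, each array left out, and averaging all probe sets of a gene. The replicate numbers did not pair the samples. Figures were drawn with matplotlib 3.10.9.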

Additional observations from a re-analysis of the deposited data

Results flagged for a closer look

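For 6 of the 76 named genes (7.89%, against 18.0% of all probe sets) replicates 1 and 2, without Y-linked signal, lay on one side and replicate 3, with it, on the other: every CREB-H-ΔTC array stood above every GFP array in the one set and below in the other. The log2 difference of the member Tap2 was -0.24 over replicates 1 and 2 and 0.60 for replicate 3, which is 0.83 more in the latter. For Psmb7 the values were -0.09 and 0.07 (0.16 more), and for Cd3g -0.46 and 0.03 (0.48 more). Those of H2-Ob were 0.63 and -0.08 (-0.71), of H2-T24 0.39 and -0.03 (-0.42), and of Ccr7 0.11 and -0.48 (-0.60). Replicate 3 is 1 array per group, and none of these differences between the sets was tested.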

How the results depend on the processing

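Of the 9 members 8, the selected H2-K1 among them, were higher with CREB-H-ΔTC under each of the 16 alternatives run, and Tap2 changed sign. Limma-trend, the replicate block and the term for Y-linked signal leave a difference of group means as it is here. They are therefore no check of its sign. The 8 members other than H2-K1, which was not tested, did not pass limma's adjusted threshold under any of the 15 alternatives that give a p. The median difference of the members (0.37) was 0.68 for replicate 3 alone, whose arrays hold Y-linked signal, and 0.29 to 0.52 with 1 array left out. The count of probe sets passing (2) was 0 with the replicate block, 1 with a term for Y-linked signal, 0 among the arrays without it and, with 1 array left out, 0 to 2, being 2 without CREB-H-ΔTC replicate 2 and 0 without any other. Same-numbered samples had correlations of deviations of 0.078, 0.127 and 0.33, and not every sample correlated best with its own number. Several named genes changed sign, none of them passing in any fit that gives a p. Over replicates 1 and 2 alone these were Tap2 (-0.24), Psmb5 (0.02), Psme1 (0.08), Psme2 (-0.05), Ass1 (-0.04), Ccr7 (0.11), Cd1d2 (0.03) and Xcr1 (-0.0048). With array weights they were Tap2 (-0.06) and Psme1 (0.01), and after median centring Psmb5 (0.01) and Alb (0.00073). With 1 array left out the ranges were -0.11 to 0.13 for Tap2, -0.05 to 0.05 for Psmb5, -0.10 to 0.00033 for Psmb7, -0.09 to 0.05 for Psme1, -0.04 to 0.18 for Psme2, -0.05 to 0.21 for Erap1, -0.07 to 0.13 for Calr, -0.10 to 0.10 for Pdia3, -0.05 to 0.09 for Cd8a, -0.04 to 0.01 for Alb, -0.02 to 0.44 for Ass1, -0.0018 to 0.49 for Cd4, -0.37 to 0.02 for Psma5 and -0.21 to 0.08 for Ccr7. For replicate 3 alone, which gives no p, the sign also differed from that with all arrays for further named genes. Among them were Calr (-0.20), Pdia3 (-0.26), Psma5 (0.20), Cd8a (-0.15) and Psmb7 (0.07). Cd3g (0.03), H2-Ob (-0.08) and H2-T24 (-0.03) were others. Causes were not tested. Background signal was not available, so the limit for dim probe sets such as Ifng and Ifnb1 is unknown.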

Other observations

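B2m also pairs with molecules outside classical class I. A list of class I-like genes, most of them for such partners, had 6 genes measured. Of these 4 were higher with CREB-H-ΔTC, with a median difference of 0.09. It was 0.06 over replicates 1 and 2, 0.07 for replicate 3 and -0.01 without CREB-H-ΔTC replicate 3. Mr1, whose product presents vitamin B metabolites to T cells, read 8.40, 7.91 and 7.68 with GFP and 8.34, 8.50 and 8.61 with CREB-H-ΔTC. Its groups overlapped, and the difference was 0.48 (SE 0.19, limma adjusted p = 0.715). Hfe, a regulator of iron uptake, differed by 0.22 (SE 0.14), and Cd1d2, a lipid-presenting molecule, by -0.13 (SE 0.13).

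The 23 other genes whose upstream window held TGACG and ATTGG at the spacing of H2-K1, H2-D1 and B2m included 22 with a probe set of their own. Of these 10 were higher with CREB-H-ΔTC, with a median difference of -0.03, and 1 stood higher without overlap between the groups, against 5.23% of all probe sets. None passed limma's test, and 0 had an unadjusted p below 0.05, against 6.89% of all probe sets. The class I heavy chain gene H2-M3 was among them and differed by 0.14 (SE 0.16). Among hepatocyte markers Apoa1 differed by 0.10 (SE 0.10), Serpina1c by -0.07 (SE 0.10) and Ass1 by 0.26 (SE 0.24). Ass1 was the dimmest hepatocyte marker, at 6.76, 6.96 and 6.04 with GFP and 6.69, 6.94 and 6.89 with CREB-H-ΔTC. Its difference was -0.02 without GFP replicate 3.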
